A study of Mus musculus with 6 samples.

Results

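The RNA of 10 haematopoietic stem cell transcription factor genes, Mecom, Meis1, Hlf, Gata2, Tal1, Lmo2, Runx1, Erg, Prdm16 and Etv6, was followed in mouse long-term haematopoietic stem cells labelled Zcchc8 KO or wild type. The genes were taken by symbol from a list of known factors, drawn up with earlier results of these data known, and all 10 were among the 14986 genes of the deposited table. They were measured in 3 Zcchc8 KO libraries and 3 wild-type (WT) libraries, each from 1500 sorted bone marrow cells, and the unit is FPKM, a read value scaled to gene length and library size. ZCCHC8 holds together the NEXT complex, a helper of the RNA exosome that directs unstable nuclear RNA to decay, and the study asked how its loss alters the transcriptome of these cells. The labels give the genotype only as ZCCHC8 KO or wild type. The sources used here do not give the allele, any Cre driver, the strain, age and sex of the mice or the surface markers of the sort. Whether the libraries of a group came from separate mice is not stated either, so each p-value measures the spread between these libraries, which may be technical.

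These factors hold the stem cell programme in place by binding DNA together. HLF, a PAR-family basic leucine zipper protein, and the homeodomain protein MEIS1 mark and help to keep the quiescent stem cell state. MECOM (EVI1) and its relative PRDM16 are zinc finger proteins of the PRDM family that are needed for long-term stem cell maintenance. GATA2 is a zinc finger protein, TAL1 (SCL) a basic helix-loop-helix protein, and LMO2 a LIM-only bridge that joins them in a complex and does not contact DNA itself. RUNX1 binds DNA with its partner CBFB, ERG is an activator of the ETS family, and ETV6 (TEL) is an ETS repressor required by adult marrow stem cells. With LYL1 and FLI1, the factors GATA2, TAL1, LMO2, RUNX1 and ERG form the group called the stem cell heptad, which occupies many of the same enhancers.

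The stretch before the RefSeq transcription start is shown for Hlf and Meis1, the members with the lowest unadjusted p among those lower in KO. Both lines give the 250 bases upstream of the start, 5′ to 3′ on the gene's strand, in build GRCm38.p6. The Hlf window is chr11:90390918-90391167 and the Meis1 window is chr11:19018970-19019219, both on the minus strand. Capitals mark matches, on either strand, to GATAA for GATA factors, CANNTG for E-box factors such as TAL1, GGAAG for ETS factors, TGNGGT for RUNX1, TGACAG for MEIS1 and TTACNTAA for PAR-family factors, and no matches overlap here.
Hlf: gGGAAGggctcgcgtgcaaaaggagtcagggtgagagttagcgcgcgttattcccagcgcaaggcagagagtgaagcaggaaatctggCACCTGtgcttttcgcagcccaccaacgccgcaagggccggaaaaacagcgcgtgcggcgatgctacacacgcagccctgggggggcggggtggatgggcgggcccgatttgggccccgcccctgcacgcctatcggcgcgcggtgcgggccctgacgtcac
Meis1: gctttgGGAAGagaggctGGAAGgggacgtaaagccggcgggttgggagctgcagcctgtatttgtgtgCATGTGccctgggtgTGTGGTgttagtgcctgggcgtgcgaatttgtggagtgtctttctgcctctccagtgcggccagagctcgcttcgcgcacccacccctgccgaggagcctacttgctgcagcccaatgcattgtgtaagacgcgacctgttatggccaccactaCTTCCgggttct

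The Hlf window held 1 E-box and 1 ETS match, and the Meis1 window held 1 E-box, 3 ETS and 1 RUNX match. Such matches are common. Of 32851 RefSeq promoter windows of this length, 66.2% held CANNTG, 64.1% GGAAG, 40.1% TGNGGT, 22.6% GATAA, 15.9% TGACAG and 2.06% TTACNTAA. Windows were at hand for 9 of the 10 members, 15 windows in all, with none for Lmo2. Each RefSeq window also runs on for 50 bases after the start. Over 98 pairs of these longer windows from different members, the longest shared run was 24 bases long and stood just after the starts of the paralogues Mecom (chr3:30509710-30509733) and Prdm16 (chr4:154636841-154636864), both on the minus strand. It is shown because it is the longest stretch that these relatives share within the windows, and motifs are not marked in it. In Mecom the run ends at the last base of the window, so the shared stretch may be longer.
Mecom and Prdm16: gcgcatgtgcgaaggtgtccaaac

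Zcchc8 itself was not lower in the libraries labelled KO, at 10.4, 5.54 and 5.92 FPKM, against 8.93, 5.24 and 5.16 FPKM in WT, and a value summed over exons cannot show a deletion of single exons. Directions here are therefore those of the libraries labelled KO.

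The KO and WT libraries differed in markers of other blood cells, whose part in the values of the 10 factors was not tested. In bulk RNA, fewer cells of a type and less RNA per cell cannot be told apart. The label of long-term stem cells was met in part by its own markers, all 9 of which were listed above 0 in at least 1 library of each group and which summed to 271 to 326 FPKM in KO and 347 to 418 FPKM in WT. Of these, Ly6a (153.1 ± 29.3 FPKM in KO and 129.1 ± 26.4 in WT) was among the most abundant, while Fgd5 was low (2.07 ± 0.57 FPKM in KO and 1.70 ± 0.617 FPKM in WT), a gene named here outside the naming rule. By value, 6 of the 9 genes were lower in KO and 3 higher, Ly6a and Fgd5 among the latter. Marker sums were higher in every KO library for 7 sets. Those of erythroid cells (8 of 9 genes listed, led by Hbb-bt and Car1) came to 436 to 465 FPKM in KO and 115 to 149 FPKM in WT, and those of megakaryocytes (7 of 7, led by Pf4 and Gp9) to 369 to 407 FPKM in KO and 232 to 321 FPKM in WT. The megakaryocyte genes did not move together, with 3 of 6 tested genes higher and 3 lower by value, Pf4 at 276.2 ± 17.1 FPKM in KO and 162.2 ± 33.1 FPKM in WT, and Gp9 at 52.6 ± 5.52 FPKM in KO and 63.4 ± 15.9 FPKM in WT. Mast cell and basophil markers (4 of 7, led by Gzmb and Fcer1a) came to 64.2 to 112 FPKM in KO and 20.3 to 35.6 FPKM in WT, with 2 of 4 genes higher and 2 lower. Gzmb, which cytotoxic cells also use, averaged 48.2 ± 22.3 FPKM in KO and 8.07 ± 1.33 FPKM in WT, and Fcer1a 27.6 ± 4.42 FPKM in KO and 9.63 ± 4.87 FPKM in WT. Eosinophil markers (5 of 9, led by Prg2 and Ear6) came to 170 to 211 FPKM in KO and 1.05 to 3.25 FPKM in WT. The sums of T and NK cells (4 of 7, led by Nkg7 and Lck), of monocytes and dendritic cells (4 of 8, led by H2-Ab1 and H2-Eb1) and of neutrophils (7 of 7, led by S100a9 and S100a8) were higher as well. Of the 7 neutrophil genes, 5 were higher and 2 lower in KO by value, and S100a9 averaged 2003 FPKM in KO and 1386 FPKM in WT. Nkg7 made up most of the T and NK sum, at 300.8 ± 10.3 FPKM in KO and 201.5 ± 27.0 FPKM in WT. Lck overlapped between groups, at 11.5 ± 2.29 FPKM in KO and 7.28 ± 4.37 FPKM in WT. Of the 4 tested genes of that set, 3 were higher and 1 lower by value. B cell markers (9 of 9, led by Igkc and Cd79b) summed to 84.3 to 118 FPKM in KO and 809 to 926 FPKM in WT. Igkc made the difference, listed at 0, 0 and 1.35 FPKM in KO and at 773.6, 746.1 and 865.8 FPKM in WT, while 4 of the 6 tested genes of that set were higher in KO by value. Endothelial markers, of a cell type that also uses Tal1, Lmo2, Gata2 and Erg, overlapped at 31.2 to 33.9 FPKM in KO and 30.3 to 39.1 FPKM in WT, and stromal markers stayed under 4 FPKM, at 1.32 to 3.9 FPKM in KO and 0.885 to 2.71 FPKM in WT.

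None of the 10 genes changed by the test used, limma on log2(FPKM + 1) over the 11837 genes that averaged 1 FPKM or more, with an adjusted p under 0.05. Of all tested genes 0.228% passed, 0.177% higher and 0.0507% lower in KO. In simulated tables this test called 18.2% of the genes with a log2 change of 1, so a gene not called may still differ. At an unadjusted p under 0.05, 2 members were lower in KO, Hlf and Meis1, and 1 was higher, Lmo2, where 9.2% of all tested genes passed, 4.87% higher and 4.33% lower. These p-values sit near that level, and leaving out 1 library put Hlf above it in 4 of 6 cases (p up to 0.0867), Meis1 in 5 (up to 0.137) and Lmo2 in 4 (up to 0.16). KO and WT libraries did not overlap for 4 of 10 members, Hlf, Meis1, Erg and Lmo2, against 15.2% of all tested genes, 8.24% with KO higher and 6.99% with KO lower. By value 3 members were higher in KO and 7 lower, beside 50.2% and 49.8% of all tested genes, and their median log2 difference was -0.09, against 0.002 over all tested genes. That median rests on which libraries are used, and stood at -0.28 without WT library 1 and at 0.02 without KO library 2.

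**Figure D1:**
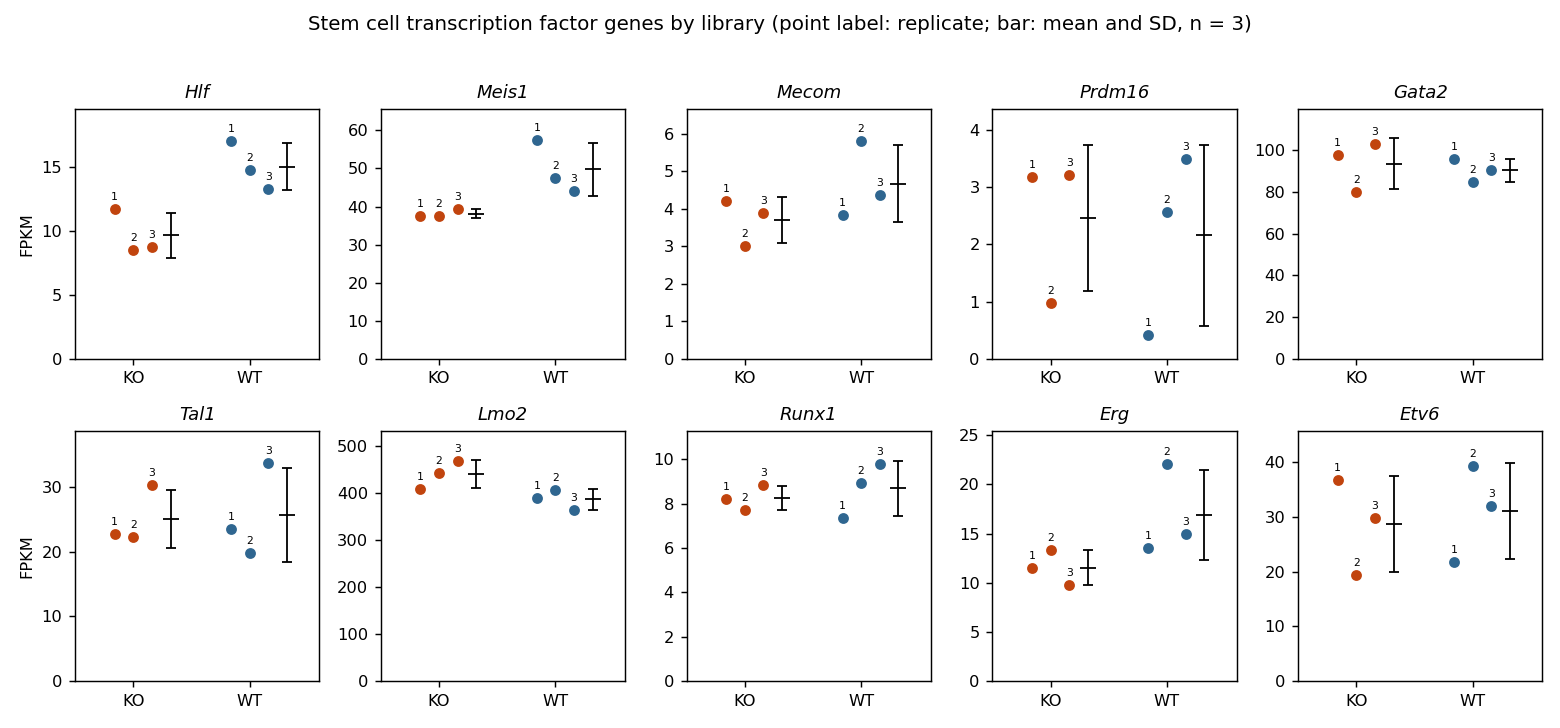
FPKM of the 10 factor genes in each KO (left) and WT (right) library, with a linear axis from 0 in each panel; numbers on the points are replicate numbers and bars give the mean ± SD of 3 libraries. Hlf, Meis1 and Erg lie lower in all KO libraries, Lmo2 lies higher, and Prdm16 varies more within each group than between them.

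Among the factors of stem cell quiescence and maintenance, Hlf had the lowest p. Hlf (ENSMUSG00000003949.16, chromosome 11, 90336536 to 90390895, GRCm38, minus strand) stood at 11.7, 8.51 and 8.75 FPKM in KO libraries 1 to 3 and at 17.0, 14.8 and 13.3 FPKM in WT libraries 1 to 3. All KO libraries lay below all WT libraries. The mean was 9.65 ± 1.77 FPKM in KO and 15.0 ± 1.86 FPKM in WT (SD, n = 3), a ratio of 0.642. The log2 difference was -0.60 ± 0.22 (SE), with a 95% interval of -1.11 to -0.09 and an adjusted p of 0.473 by limma (unadjusted p = 0.0267). The summed markers of long-term stem cells were also lower in every KO library, with 6 of the 9 genes lower and 3 higher by value. The part of these markers' cells in the Hlf and Meis1 values was not tested.

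Meis1 (ENSMUSG00000020160.18, chromosome 11, 18879817 to 19018985, minus strand) stood at 37.5, 37.5 and 39.4 FPKM in KO and at 57.6, 47.5 and 44.2 FPKM in WT. The KO libraries were nearly equal and all below the WT libraries, of which the first was highest. Means were 38.2 ± 1.11 FPKM in KO and 49.8 ± 6.99 FPKM in WT, a ratio of 0.767. This was a log2 difference of -0.37 ± 0.15, with an interval of -0.71 to -0.03 and a limma adjusted p of 0.506 (unadjusted p = 0.038). In GENCODE, 9.77% of the Meis1 exon bases also belong to the unclassified transcript Gm37818 on the same strand and 8.51% to the antisense transcript Gm16140, and no source used here states the strand setting of the counting, so reads of these overlaps cannot be told apart.

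Mecom (ENSMUSG00000027684.16, chromosome 3, 29951296 to 30548008, minus strand) was a low member, at 4.20, 3.01 and 3.88 FPKM in KO and at 3.84, 5.81 and 4.37 FPKM in WT. The groups overlapped, with KO library 2 lowest and WT library 2 highest. Mecom differed by -0.27 ± 0.29 on the log2 scale (interval -0.93 to 0.40), and by -0.13 without WT library 2. The gene has long and short products, MDS1-EVI1 and EVI1, from separate starts, and 1 value per gene symbol does not separate them.

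Prdm16 (ENSMUSG00000039410.16, chromosome 4, 154316125 to 154636873, minus strand) was the lowest and the most scattered, at 3.17, 0.979 and 3.21 FPKM in KO and at 0.416, 2.56 and 3.49 FPKM in WT. The lowest library of each group lay well under the others, KO library 2 and WT library 1. Its log2 difference of 0.21 ± 0.52 had an interval of -0.96 to 1.38, wide enough for a clear change either way, and the sign turned to -0.29 without WT library 1.

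Within the complex of GATA2, TAL1 and LMO2, only Lmo2, the bridge, had groups that did not overlap. Lmo2 (ENSMUSG00000032698.15, chromosome 2, 103957986 to 103981878, plus strand) stood at 410.0, 444.2 and 468.7 FPKM in KO and at 390.1, 406.8 and 363.8 FPKM in WT. Each KO library was above each WT library, though KO library 1 and WT library 2 were close. Means were 441.0 ± 29.5 FPKM in KO and 386.9 ± 21.7 FPKM in WT, a ratio of 1.14. In log2 the difference was 0.19 ± 0.08, with an interval of 0.002 to 0.37 and a limma adjusted p of 0.537 (unadjusted p = 0.0483). Under quantile scaling it was 0.11, with an unadjusted p of 0.254. Lmo2, Gata2 and Tal1 are also used by erythroid, megakaryocytic or mast cells. The erythroid sum was higher in the same KO libraries, as were the megakaryocyte and mast cell sums, each with as many tested genes lower as higher, and the part of those cells in the Lmo2 value was not tested.

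Gata2 (ENSMUSG00000015053.14, chromosome 6, 88193891 to 88207032, plus strand) stood at 97.8, 79.9 and 102.9 FPKM in KO and at 95.8, 84.7 and 90.4 FPKM in WT. The groups overlapped, and the KO libraries held both the lowest and the highest value. Its log2 difference of 0.04 ± 0.13 had an interval of -0.25 to 0.34, the narrowest after that of Lmo2, and was just below 0 under quantile scaling (-0.0017). Tal1 (ENSMUSG00000028717.12, chromosome 4, 115056426 to 115071755, plus strand) stood at 22.8, 22.3 and 30.3 FPKM in KO and at 23.6, 19.8 and 33.8 FPKM in WT. Library 3 was highest in each group, and the log2 difference was -0.01 ± 0.23, with an interval of -0.54 to 0.51.

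Of the runt and ETS factors, Erg was the one with groups apart. Erg (ENSMUSG00000040732.20, chromosome 16, 95359169 to 95586593, minus strand) stood at 11.5, 13.3 and 9.74 FPKM in KO and at 13.5, 22.1 and 15.0 FPKM in WT. KO library 2 and WT library 1 nearly met, and WT library 2 lay well above the rest. Means were 11.5 ± 1.79 FPKM in KO and 16.9 ± 4.62 FPKM in WT, a ratio of 0.682. Erg differed by -0.49 ± 0.25 on the log2 scale (interval -1.05 to 0.06, limma adjusted p = 0.59), and without WT library 2 it was -0.29.

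Runx1 (ENSMUSG00000022952.17, chromosome 16, 92601466 to 92826149, minus strand), which is read from separate distal and proximal promoters that the table does not split, stood at 8.21, 7.72 and 8.84 FPKM in KO and at 7.33, 8.93 and 9.80 FPKM in WT. All KO values lay within the WT range, and the log2 difference was -0.06 ± 0.23, with an interval of -0.59 to 0.47. Etv6 (ENSMUSG00000030199.16, chromosome 6, 134035700 to 134270158, plus strand) stood at 36.8, 19.4 and 29.7 FPKM in KO and at 21.8, 39.3 and 31.9 FPKM in WT. Both groups covered nearly the same wide range, and the log2 difference was -0.12 ± 0.28, with an interval of -0.75 to 0.51. The signs of the Tal1, Runx1 and Etv6 differences turned when certain single libraries were left out. In the exact two-sided permutation test over libraries, Hlf, Meis1, Lmo2 and Erg each gave p = 0.1, the smallest that 3 libraries against 3 allow, and the others gave 0.3 to 1.0.

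**Figure D2:**
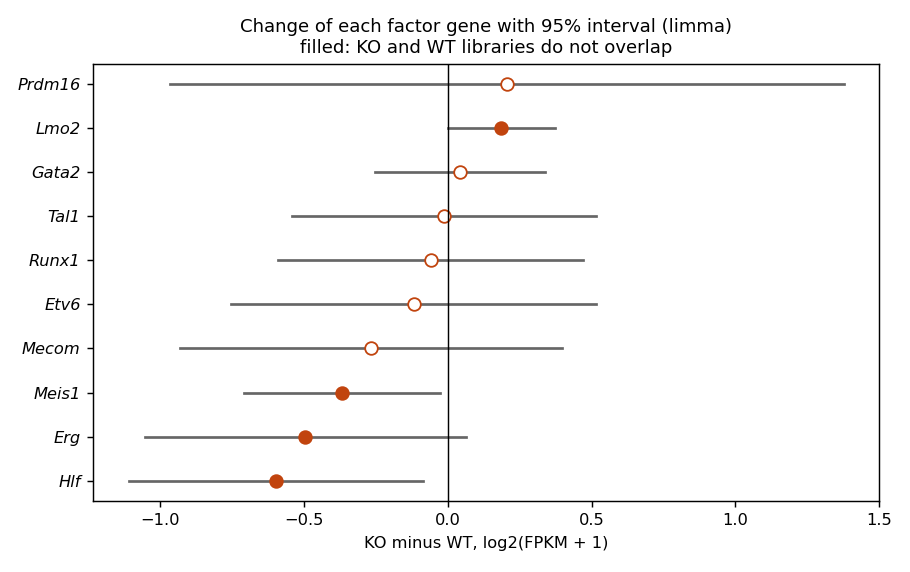
Log2 difference of each factor gene, KO minus WT on the log2(FPKM + 1) scale, with its 95% interval from limma; filled points are genes whose KO and WT libraries do not overlap. Intervals of Hlf (-1.11 to -0.09) and Meis1 (-0.71 to -0.03) lie below 0, that of Lmo2 begins at 0.002, and Prdm16 has the widest.

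**Figure D3:**
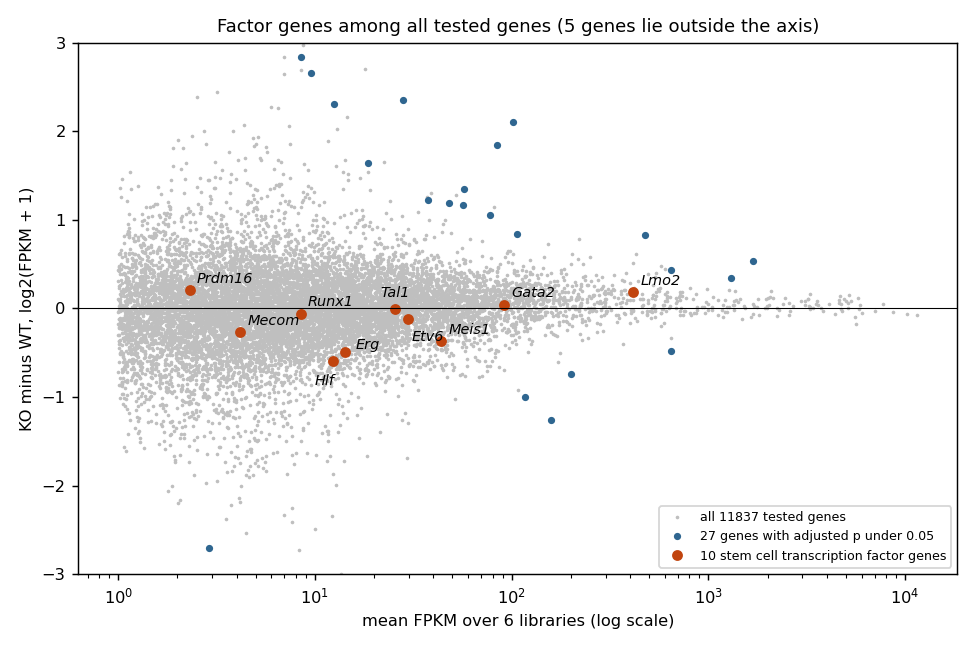
Mean FPKM over the 6 libraries (log axis) against the log2 difference, KO minus WT, for all 11837 tested genes (grey), the 27 genes with an adjusted p under 0.05 (blue) and the 10 factor genes (red), with 5 genes outside the axis. The factor genes lie inside the grey cloud, at differences from -0.60 for Hlf to 0.21 for Prdm16.

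FPKM is a value per length, here of all annotated exons of a gene together, 2166 bases for Lmo2 and 12427 bases for Mecom. The transcripts in these cells may be shorter, by an amount that differs between genes, so the order across genes is approximate. In both groups the order by mean FPKM began with Lmo2, Gata2, Meis1, Etv6 and Tal1 and ended with Erg, Hlf, Runx1, Mecom and Prdm16. Lmo2 was highest, Gata2 next and Meis1 after it in each of the 6 libraries, with no overlap of ranges between these neighbours, and Mecom and Prdm16 were the last in each library. In KO the libraries of Etv6 and Tal1, of Erg and Hlf, of Hlf and Runx1, and of Mecom and Prdm16 overlapped. In WT those of Etv6 and Tal1, Tal1 and Erg, and Erg and Hlf did. Hlf was thus apart from Runx1 in WT, at means of 15.0 and 8.69 FPKM, and not apart from it in KO, at 9.65 and 8.26 FPKM.

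Summed over the 10 genes, the level was 643.5, 636.9 and 705.5 FPKM in KO and 630.9, 652.5 and 610.1 FPKM in WT, and the groups overlapped. Lmo2 alone made up 63.7%, 69.7% and 66.4% of that sum in KO and 61.8%, 62.4% and 59.6% in WT. The other 9 summed to 233.6, 192.7 and 236.8 FPKM in KO and to 240.8, 245.6 and 246.3 FPKM in WT. Every KO library was below every WT library, though the highest KO sum (236.8 FPKM) was close to the lowest WT sum (240.8 FPKM). This separation rests on leaving out Lmo2, which lay higher in every KO library, as the sums of all 10 genes overlapped. Hlf, Meis1 and Erg, which lay lower in every KO library, stayed in the sum. Ratios between members within a library cancel any single scaling factor of that library, and the following were chosen after the values were seen. Hlf came to 2.85%, 1.92% and 1.87% of Lmo2 in KO and to 4.35%, 3.65% and 3.65% in WT. Meis1 came to 9.14%, 8.45% and 8.41% of Lmo2 in KO and to 14.8%, 11.7% and 12.1% in WT. Neither ratio could overlap between the groups, since Hlf and Meis1 lay lower and Lmo2 higher in every KO library. Meis1 also stood at 38.3%, 47.0% and 38.3% of Gata2 in KO and at 60.2%, 56.1% and 48.9% in WT, while Gata2 relative to Lmo2 overlapped, at 23.9%, 18.0% and 21.9% in KO and 24.5%, 20.8% and 24.8% in WT.

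Each member varied between libraries by more than counting error. FPKM times exon length came in whole steps, which gave 25709663, 18963362 and 20823497 reads behind the values of KO libraries 1 to 3 and 18059318, 18294786 and 18909212 behind those of WT libraries 1 to 3. On that scale Lmo2 rested on 14901 to 22831 reads per library, Hlf on 1078 to 2048, Erg on 703 to 1403 and Prdm16 on 70 to 760. The coefficient of variation between libraries was 2.91% in KO and 14.1% in WT for Meis1, where counting error alone gives 1.07% and 1.02%. For Prdm16 it was 52.1% in KO and 73.2% in WT, against 4.39% and 5.17% from counting. These counting errors treat reads as independent molecules, which amplified cDNA does not ensure. The median variation of the 10 members was 16.1% in KO and 18.1% in WT, beside 25.3% and 24.0% over all tested genes and 15.6% and 15.3% over genes of 10 FPKM or more.

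**Figure D4:**
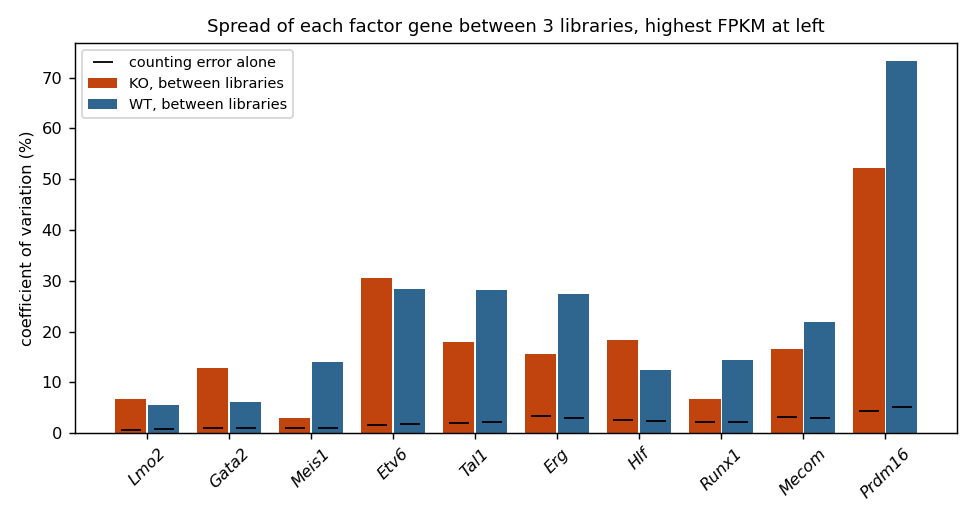
Coefficient of variation (%) of each factor gene between the 3 KO libraries (left bar) and the 3 WT libraries (right bar), ordered by WT level, with a dash where counting error alone would put it. Every bar exceeds its dash, from Meis1 in KO (2.91% against 1.07%) to Prdm16 in WT (73.2% against 5.17%).

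The members did not move as a block from library to library. Over the 45 pairs, the median correlation of deviations from the group means was 0.112 over 6 libraries, with 7 pairs above 0.5 and 6 below -0.5. The highest were Mecom with Etv6 (r = 0.943), Runx1 with Prdm16 (r = 0.938) and Prdm16 with Etv6 (r = 0.872), and the lowest Meis1 with Runx1 (r = -0.815) and Gata2 with Erg (r = -0.776). These pairs share library and depth, and with 6 points they are a description. The mean of the centred member profiles was 0.03, -0.26 and 0.01 in KO libraries 1 to 3 and -0.10, 0.18 and 0.15 in WT libraries 1 to 3, on the log2 scale. Of the other genes that averaged 5 FPKM or more, those with the most similar profile were Aar2 (Pearson r = 0.985), Tcea2 (r = 0.984), Cox20b (r = 0.98), Gas2l3 (r = 0.973) and Zfp579 (r = 0.97), each over 6 libraries and with Spearman's rho of 0.943 for Gas2l3 and 1 for the rest. Aar2 stood at 22.3, 8.77 and 20.8 FPKM in KO and at 14.1, 30.6 and 25.1 FPKM in WT. As in the mean profile, KO library 2 and WT library 1 were low. WT libraries 2 and 3 lay above every KO library, and WT library 1 lay below KO libraries 1 and 3, so the groups overlapped. Mecom, Runx1, Prdm16 and Etv6 were lowest in KO library 2 and in WT library 1 within their groups, while Hlf, Meis1 and Gata2 were highest in WT library 1 within their group. The mean profile gives most weight to the most variable members. The similar genes were picked as the best of many over 6 libraries and are a description.

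The proteins that work with these factors gave no gene past the adjusted threshold either. Of 26 partner genes, 3 were lower and 1 higher in KO at an unadjusted p under 0.05, with a median log2 difference of -0.07, where 4.33% of all tested genes were lower and 4.87% higher at that level. Groups did not overlap for 6 of the 26, against 15.2% of all tested genes. Lyl1, the basic helix-loop-helix relative of TAL1 in the heptad, had the lowest p of the list. It stood at 120.4, 133.2 and 157.3 FPKM in KO and at 222.3, 203.3 and 196.8 FPKM in WT, a log2 difference of -0.60 ± 0.12 with an interval of -0.87 to -0.33 and a limma adjusted p of 0.129. Its KO libraries were all well below those of WT. Fli1, the ETS factor of the heptad, lay outside the naming rule and stood at 123.3, 107.5 and 98.0 FPKM in KO and at 86.4, 98.2 and 102.2 FPKM in WT, with overlap.

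Hdac3, the deacetylase of the NCOR co-repressor that ETV6 and other factors recruit, stood at 18.9, 15.7 and 13.8 FPKM in KO and at 27.0, 34.3 and 27.1 FPKM in WT (log2 difference -0.83 ± 0.20, adjusted p = 0.19). Tcf3, which encodes the E proteins that pair with TAL1, was the partner higher in KO, at 30.5, 26.5 and 26.6 FPKM against 14.0, 19.6 and 17.6 FPKM in WT (log2 difference 0.68 ± 0.19, adjusted p = 0.29). Hoxa9, whose protein binds DNA with MEIS1, stood at 18.8, 22.5 and 24.2 FPKM in KO and at 30.0, 28.1 and 30.3 FPKM in WT (log2 difference -0.42 ± 0.17, adjusted p = 0.5). The groups did not overlap for any of the 3. Of the partners whose groups overlapped, 2 chosen outside the naming rule are given as examples, with means in KO and WT of 22.0 ± 1.23 and 23.0 ± 3.11 FPKM for Cbfb and 11.9 ± 1.54 and 11.2 ± 3.04 FPKM for the bridging factor Ldb1.

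Of 18 genes of the same families, 1 was lower and 1 higher at an unadjusted p under 0.05, with a median of -0.21, beside 9.2% of all tested genes in either direction. Nfil3, a leucine zipper repressor that binds the sites of the PAR family to which HLF belongs, was listed at 0, 0.208 and 1.49 FPKM in KO and at 3.17, 3.89 and 3.60 FPKM in WT (adjusted p = 0.223). Gata1, the erythroid and megakaryocytic GATA factor, stood at 59.3, 59.6 and 42.6 FPKM in KO and at 42.7, 36.7 and 38.7 FPKM in WT (adjusted p = 0.496), with KO library 3 at the level of WT library 1. The erythroid marker sum was higher in the same KO libraries, and the megakaryocyte genes were split. Gata3 stood at 8.21, 11.1 and 8.16 FPKM in KO and at 17.8, 21.1 and 8.31 FPKM in WT (adjusted p = 0.602), and the groups overlapped.

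Of 20 other regulators of stem and progenitor cells, 5 were lower and 1 higher at an unadjusted p under 0.05, with a median of -0.22, beside 4.33% and 4.87% of all tested genes. Nkx2-3, a homeobox gene, stood at 39.8, 39.1 and 42.1 FPKM in KO and at 53.8, 81.0 and 73.4 FPKM in WT (log2 difference -0.75 ± 0.17, adjusted p = 0.18). Foxo3, a forkhead factor of stem cell quiescence, stood at 17.4, 18.1 and 22.7 FPKM in KO and at 32.8, 30.5 and 27.0 FPKM in WT (adjusted p = 0.327). Zbtb16 (PLZF) was low, at 0.876, 0.0898 and 0.727 FPKM in KO and 4.37, 2.22 and 1.85 FPKM in WT (adjusted p = 0.367). In these 3 genes all KO libraries lay below all WT libraries. Groups did not overlap for 8 of the 20 in either direction, Gfi1 with KO higher among them, against 15.2% of all tested genes. Spi1, the ETS gene of PU.1 and a known RUNX1 target, stood at 65.1, 41.7 and 51.6 FPKM in KO and at 87.9, 73.0 and 69.2 FPKM in WT (adjusted p = 0.385), also without overlap.

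Of 19 genes known to be regulated by one or more of the factors, 5 were lower and 1 higher at an unadjusted p under 0.05, with a median of -0.06, beside the same 4.33% and 4.87%. Spi1, lower, and Gfi1, the gene higher, are also counted among the regulators. Eng, the endoglin gene bound by ETS factors, GATA2 and TAL1, stood at 33.6, 32.1 and 27.3 FPKM in KO and at 48.4, 46.5 and 47.2 FPKM in WT (adjusted p = 0.208). Kit, the stem cell factor receptor and a target of the TAL1 complex, stood at 19.9, 27.7 and 22.1 FPKM in KO and at 32.6, 37.0 and 40.5 FPKM in WT (adjusted p = 0.297). Neither gene overlapped between groups. That held for 9 of the 19 in either direction, Gfi1 with KO higher among them, against 15.2% of all tested genes.

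**Figure D5:**
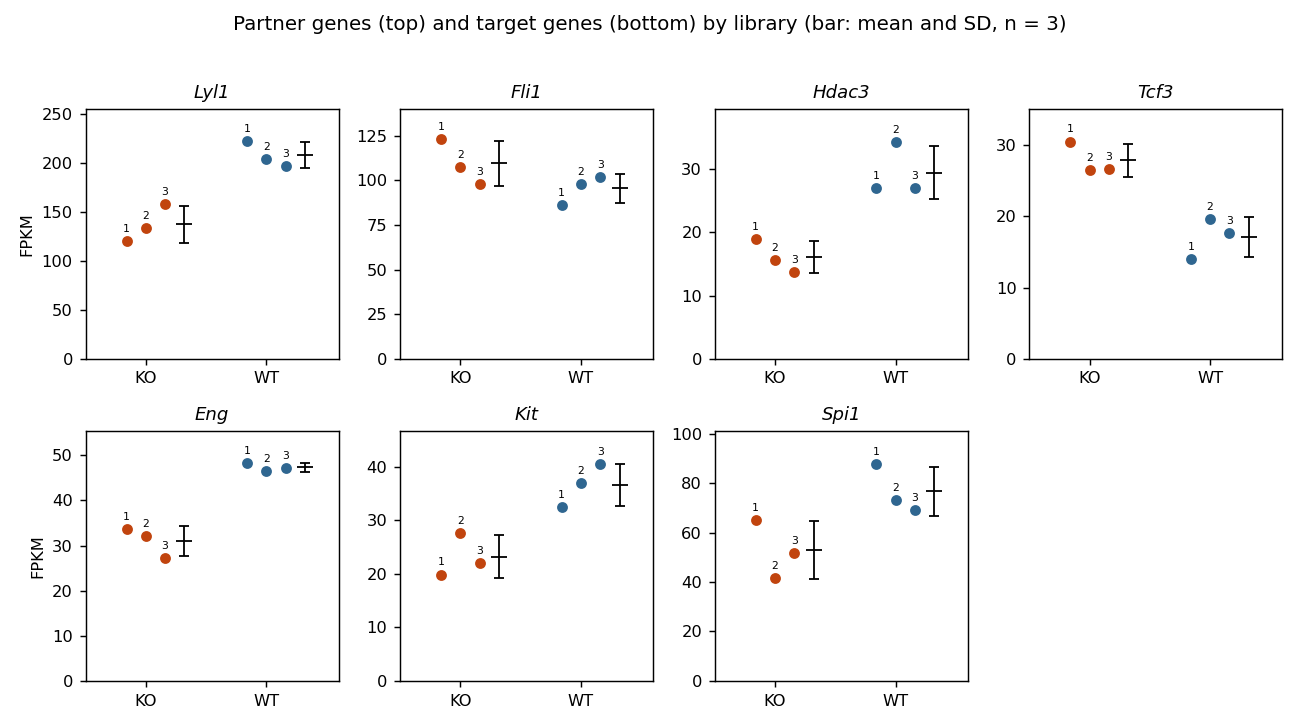
FPKM of partner genes (top row) and target genes (bottom row) in each KO (left) and WT (right) library, linear axes from 0, with the mean ± SD of 3 libraries. KO and WT libraries overlap for Fli1 and not for the other genes shown, of which Tcf3 is higher in KO and the rest are lower.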

How the data were processed

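RNA-seq of 3 KO and 3 WT libraries was deposited by the authors as FPKM, with a row for each gene symbol. The submitters' processing notes name fastp for reads, Bowtie2, featureCounts and mm10. The sources used here give no versions, strand setting or rule for multiply mapped reads. Bowtie2 makes no spliced alignments, so reads over exon junctions can be lost. Titles gave the groups and replicate numbers. Of the symbols, 97.88% matched GENCODE M21 (GRCm38). FPKM times exon length was whole, within 0.05 reads, for 97.9% to 98.3% of values under 100 reads. The mean chi-square per gene between libraries of a group was 54.5 to 77.7, well above counting error. KO was compared with WT by limma 3.58.1 (R 4.3.3) on log2(FPKM + 1), for genes averaging 1 FPKM or more, with a mean-variance trend and Benjamini-Hochberg adjustment over all tested genes. Tests are two-sided, and each p not called exact is limma's. This scale understates changes of low genes. The procedure was tested on 10 simulated tables with 200 changed genes each. It called 18.2% of the genes with a log2 change of 1 and 62.1% of those with a change of 2. Of its calls, 3.83% were false. The 10 genes and the lists of partners, relatives, regulators, targets and markers were chosen with earlier results of these data known. Beside the 10 genes and Zcchc8, the naming rule takes up to 4 genes of smallest p in each list, 5 genes of similar profile and the 2 most abundant genes of each marker list whose sums did not overlap, and some genes it takes are not reported here. Promoter sequences are from RefSeq (GRCm38.p6). Alternatives changed the pseudocount, filter, scaling, trend, replicate block, test or libraries. Figures used matplotlib 3.10.9 in Python 3.11.15.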

Additional observations from a re-analysis of the deposited data

How the results depend on the processing

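No member passed an adjusted p of 0.05 under any of the 16 alternatives run. Hlf, Meis1, Erg, Lmo2 and Mecom kept their direction in each one that tested them, with log2 differences of -0.73 to -0.45, -0.45 to -0.26, -0.63 to -0.29, 0.11 to 0.24 and -0.37 to -0.13. Their unadjusted p was under 0.05 in 12 of these for Hlf, 9 for Meis1, 5 for Lmo2, 1 for Erg and 0 for Mecom. The other members changed sign when a library was left out. The range was -0.343 to 0.128 for Etv6 (positive without KO library 2 or, at 0.067, WT library 2), -0.028 to 0.152 for Gata2 (negative without KO library 3 or, at -0.00049, WT library 2), and -0.293 to 0.568 for Prdm16 (negative without WT library 1). It was -0.164 to 0.024 for Runx1 (positive without WT library 3) and -0.176 to 0.195 for Tal1 (positive without WT library 3, or at 0.049 and 0.064 without KO library 1 or 2). Gata2 stood at -0.0017 under quantile scaling. Leaving out 1 library moved the median of the members between -0.275 and 0.024. Over all genes there were 27 calls as reported, 8 without the trend, 8 with voom on recovered reads and 11 to 19 with 1 library left out, fewest without KO library 3 or WT library 3. The targets held 1 call where the mean was at least 5 FPKM and under quantile scaling, and none as reported. The cause was not tested. Same-numbered libraries did not deviate together (r = 0.0235, 0.0071 and 0.0037). This shows no pairing but cannot exclude that they were prepared together, which the labels do not state. The replicate block left 11 calls over all genes and 0 among the members. No scaling moved the median of all genes by 0.1 or more on the log2 scale. Prdm16 had the fewest reads, 70 in WT library 1, and counting error was below the spread between libraries for each member.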
